A study of Mus musculus with 2 samples.

Results

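The 8 genes described here encode receptors of amino acids, of the transmitters glutamate and GABA and of extracellular calcium, and they were taken from the deposited gene table by symbol. They are *Grm2*, *Grm4*, *Grm5*, *Grm7*, *Casr*, *Gprc6a*, *Gabbr1* and *Gabbr2*, and each had 1 of the 18498 rows of the table. The table compares 1 poly(A) RNA library of circumvallate papillae (CvP) with 1 library of tongue epithelium without papillae (Epi), both from male C57BL/6J mice of 12 to 30 weeks on normal chow. RNA of at least 20 mice was pooled for each library, so there was no replicate and no p-value was calculated. Under RT-PCR the paper also states that its CvP sample held the epithelium around the taste buds. Values are RPKM, a read density scaled to the length of the exon model and to the number of mapped reads.

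All 8 proteins belong to class C of the G protein-coupled receptors. These receptors work as dimers, and in most of them the ligand closes a large extracellular domain with 2 lobes, as a trap closes on its prey. The sweet and umami taste receptors are built in the same way: TAS1R3 pairs with TAS1R1 to sense amino acids and with TAS1R2 to sense sugars. Metabotropic glutamate receptors have been proposed as further umami receptors in taste cells, and a shortened form of mGluR4 has been described in taste tissue. The calcium-sensing receptor CaSR binds calcium, amino acids and gamma-glutamyl peptides, and has been linked to kokumi, the mouthfulness that such peptides lend to food. GABA, which acts on the GABA-B receptor, is made by some taste cells.

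The receptors resemble each other in protein more than in nucleotide sequence, and the stretches of RNA that they share bear on whether reads could have been counted on the wrong member. In the GENCODE M1 transcripts, which are placed on NCBI37/mm9 as the table is, the longest identical run between the coding sequences of any of the 28 pairs of members was 26 bases, between *Grm4* and *Grm7*. The next longest runs, of 18 bases, were between *Grm2* and *Grm7* and between *Grm4* and *Casr*. These 3 pairs are shown as windows of 30 coding bases, 5′ to 3′ along the gene, with the shared run in capitals.
Grm4 (chr17:27571594-27571623, minus strand): cgTGTACTGTGTATGCCATCAAGACTCGag
Grm7 (chr6:111308929-111308958, plus strand): caTGTACTGTGTATGCCATCAAGACTCGgg
Grm2 (chr9:106556491-106556520, minus strand): ctgggtGGGCTGTTCCCAGTGCACcagaag
Grm7 (chr6:110596012-110596041, plus strand): cttgggGGGCTGTTCCCAGTGCACgccaag
Grm4 (chr17:27568419-27568448, minus strand): cccaaaGTCTACATCATCCTCTTCcacccg
Casr (chr16:36495201-36495230, minus strand): aacaagGTCTACATCATCCTCTTCaagcct
No window of 75 bases, the read length, of the transcript with the longest coding sequence of any member occurred in a protein-coding transcript of another gene. This search asked for exact matches only. It did not cover non-coding transcripts or the listed length beyond the transcript used, which for *Grm5* gave 3538 windows against a listed 8.524 kb.

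The receptors were low to middling in level, and their levels spanned from a listed 0 to 3.94 RPKM in the CvP. *Gabbr1*, the ligand-binding subunit of the GABA-B receptor, was the highest, with a CvP level of 3.94 RPKM and an Epi level of 1.44 RPKM. *Grm4*, which encodes a glutamate receptor that lowers cyclic AMP, followed at 3.25 RPKM in the CvP and 1.81 RPKM in the Epi. For *Casr* the CvP level was 1.09 RPKM, and the Epi value was listed as 0. *Gabbr2*, the subunit of the GABA-B receptor that couples to the G protein, stood at 0.25 RPKM in the CvP and 0.01 RPKM in the Epi. The level of 3 members exceeded 1 RPKM in the CvP, whereas 2 did so in the Epi. Over all rows the median was 3.74 RPKM in the CvP and 1.94 RPKM in the Epi.

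**Figure D1:**
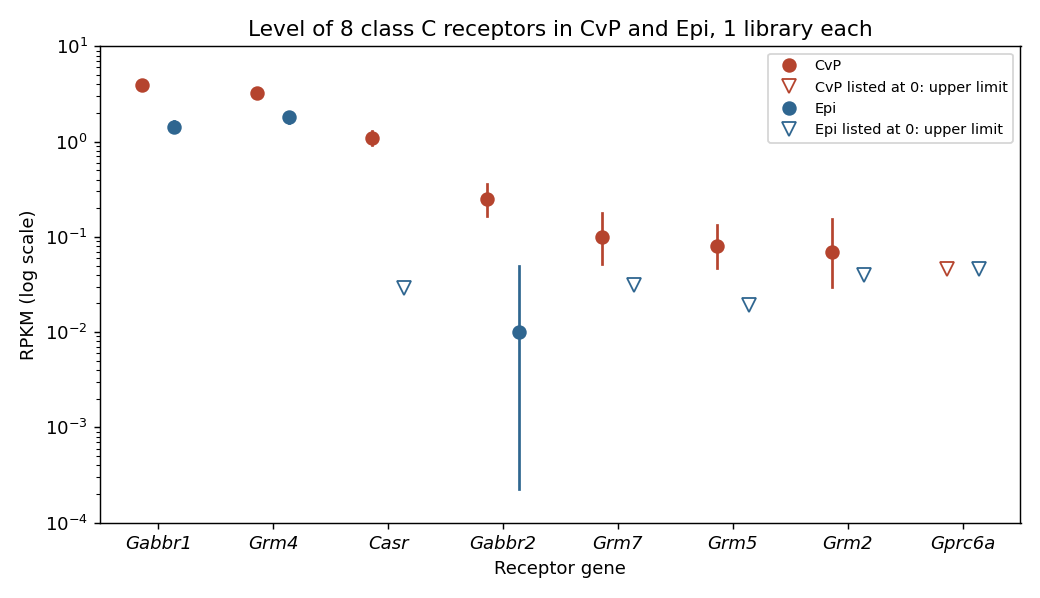
RPKM (log scale) of the 8 receptor genes in the CvP library (red) and the Epi library (blue); bars are 95% exact Poisson intervals, which cover counting error only, and open triangles are the upper limits of genes listed at 0. *Gabbr1* and *Grm4* lie above 1 RPKM in both libraries, *Casr* in the CvP alone, and 5 members are listed at 0 in the Epi, beside 11.9% of all rows.

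Low values are a matter of few reads. From the spacing of the lowest values in the table, the libraries held about 28421050 mapped reads for the CvP and 27960244 for the Epi. The reads of each gene were worked out from its length and these depths, and a gene with at most 3 estimated reads was taken as not detectable. By this limit 7 of the 8 members were detected in the CvP and 2, *Gabbr1* and *Grm4*, in the Epi. Of all 18498 rows, 16297 had more than 3 reads in either library and 14046 in both. *Gabbr1* had about 588 reads in the CvP and *Grm4* about 419, *Casr* about 140, *Gabbr2* 28, *Grm5* 16, *Grm7* 12 and *Grm2* 7. These estimates use the longest coding transcript wherever the table lists a longer gene, which lowers the counts of 4 members. With the listed length *Gabbr1* had 900 reads in the CvP, *Grm4* 653, *Casr* 239 and *Grm5* 19. Among short rows of genes listed at over 1.1 times the transcript, CvP values gave whole reads in 93.3% of 15 rows with the listed length, and in 29.4% of 85 rows with the transcript length. The 15 and the 85 rows were not the same set. The listed length gave whole reads more often and so appears to be the one that the RPKM was scaled to. The lower counts are then too low, and they are the more cautious ones. *Gprc6a* had 0 reads in both libraries. The upper limits of its exact Poisson intervals were 0.04545 RPKM in the CvP and 0.0462 RPKM in the Epi. For this gene the limit of 3 reads lay at 0.0370 RPKM in the CvP and 0.0376 RPKM in the Epi. A listed 0 in the Epi could hide at most 1 read of *Casr* or *Grm5* by rounding, and none of *Grm2*, *Grm7* or *Gprc6a*.

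By counting error alone, the order of levels in the CvP was therefore firm at its upper end only. The 95% interval of *Gabbr1*, from 3.63 to 4.27 RPKM, lay above that of *Grm4*, from 2.95 to 3.58 RPKM. *Grm4* lay above *Casr* (0.914 to 1.28 RPKM), and *Casr* above *Gabbr2* (0.164 to 0.356 RPKM). From *Gabbr2* down to *Gprc6a* the intervals of neighbours overlapped. In the Epi *Grm4* came first, with an interval of 1.59 to 2.06 RPKM, and *Gabbr1* followed, from 1.25 to 1.65 RPKM. The direct ratio of *Gabbr1* to *Grm4* in the Epi was 0.796 (95% interval 0.655 to 0.960). By RPKM their order was thus the reverse of that in the CvP. Levels of different genes also depend on the listed lengths. That of *Gabbr1* was 8.039 kb, against 7.793 kb of annotated exons, and that of *Grm4* 7.07 kb, against 5.318 kb. The effect of these lengths on the order was not tested. Among all rows, *Gabbr1* stood near the middle, since 50.8% of rows had a lower CvP RPKM, and *Casr* stood above 34.1% of rows.

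*Gabbr1* and *Grm4*, the 2 members with more than 3 reads in both libraries, were higher in the CvP than in the Epi by more than the counting error. Their 95% exact (Clopper-Pearson) intervals of the CvP/Epi ratio lay above 1, as did those of 65.0% of the 14046 rows with more than 3 reads in both. Neither had a ratio above 3, a limit named in the study, beside 15.0% of these rows. *Grm2*, *Grm5*, *Grm7*, *Casr* and *Gabbr2* had 0 or 1 Epi reads and passed the read limit through the CvP alone. A gene detected in this way had to be the higher one in the CvP, so the counts over all 7 are a description and support nothing. The interval lay above 1 in these 5 too, 7 in all, beside 64.7% of the 16297 rows with more than 3 reads in either library. With an Epi value of 0 counted as passing, a ratio above 3 was found for the 5, beside 23.6% of the same rows. With the Epi set at 3 reads where it had none, 4 remained above 3, without *Grm2*, beside 21.8%. The lower limit of the interval lay above 3 in 3 members, *Casr*, *Gabbr2* and *Grm5*, beside 13.2%. For *Grm5* this took the listed 0 as no reads, although by rounding it could hide 1. The limit with 1 Epi read was not calculated. In bulk RNA, fewer cells of a type and less RNA per cell cannot be told apart, which holds for every ratio given here. None of the 7 had a ratio below 1/3, beside 3.04% of rows, and none had an interval below 1, beside 13.7%. In the median of the 7, the log2 ratio with 0.1 RPKM added to both values was 1.00, against 0.56 over the 16297 rows. With genes that had no reads in a library set to 3 reads there, the median log2 ratio was 1.96 for the 7 and 0.61 for the 16297 rows. Both medians of the 7 include the 5 members that had to be higher in the CvP, so they too only describe and support nothing. A CvP RPKM above 10 together with a ratio above 3 was found for 0 of the 8, beside 2.35% of all rows.

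The rows of the table as a whole leaned towards the CvP, and more so where reads were few. Over the 10363 rows with at least 1 RPKM in both libraries, the median ratio was 1.31. The intervals of *Gabbr1* and *Grm4* lay above 1.31 too, and so did those of the 5 detected through the CvP, beside 44.2% of the 16297 rows. Among the 2339 rows with a geometric mean of the 2 values from 1 to 3 RPKM, where *Gabbr1* and *Grm4* fall, the median log2 ratio was 0.92, and among the 1939 rows from 0.3 to 1 RPKM it was 1.21. Among the 2645 rows with 4 to 30 CvP reads, where *Grm2*, *Grm5*, *Grm7* and *Gabbr2* fall, the median ratio was 3. Of these rows, 48.7% had a ratio above 3 and 21.5% were listed at 0 in the Epi. The part of this lean in the members' ratios was not tested.

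**Figure D2:**
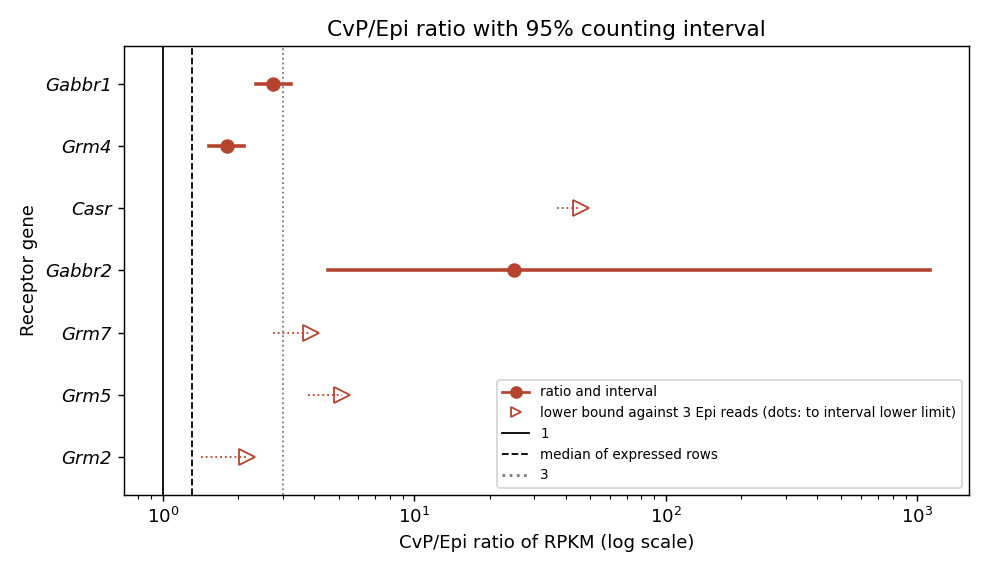
CvP/Epi ratio of RPKM (log scale) for the 7 members with more than 3 CvP reads; filled circles with bars are ratios with 95% exact intervals, open triangles are lower bounds against 3 Epi reads with dots running to the lower limit of the interval, and lines mark ratios of 1 (solid), 1.31 (dashed) and 3 (dotted). *Casr* has the highest bound, at 46.1, while *Grm4* is the lowest of the plotted ratios, at 1.80.

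*Casr* showed the clearest difference. Its gene lies on the minus strand of chromosome 16 (36493782 to 36562220 on NCBI37/mm9), with 7 exons in the longest coding transcript. With about 140 CvP reads at 1.09 RPKM, against a listed 0 in the Epi, it was at least 46.1-fold higher in the CvP. This bound sets the Epi at 3 reads, or 0.0237 RPKM, and the lower limit of the counting interval was 36.9. With the listed length the bound was 78.4 and the lower limit 63.2. Of the 1442 rows with 100 to 200 CvP reads, 79 (5.48%) were listed at 0 in the Epi as *Casr* was. By the listed length this held for 30 (3.33%) of the 901 rows with 200 to 300 reads. The table gives *Casr* a length of 7.714 kb, whereas the annotated exons of the gene add up to 4.718 kb. What the added length covers was not given.

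*Grm4* had the lowest of the ratios and bounds, although the interval of *Grm2* reached lower. It lies on the minus strand of chromosome 17 (27559333 to 27640249), and its ratio was 1.80 (95% interval 1.52 to 2.11), beside a median of 1.89 over the 2339 rows of like level. Of the 1384 rows with 400 to 600 CvP reads, the median ratio was 1.51, and 63.6% had a ratio below that of *Grm4*. By the listed length the median was 1.49 over the 1466 rows with 600 to 1000 reads. Divided by the median ratio of 1.31, the ratio of *Grm4* was 1.37. The full-length and shortened forms of the receptor cannot be told apart from 1 value per gene. The listed length of *Grm4* was 7.07 kb, against 5.318 kb of annotated exons.

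The other 3 metabotropic glutamate receptors were near the limit of detection. *Grm5*, which couples to phospholipase C and releases calcium, lies on chromosome 7 (94732678 to 95283573) and had 0.08 RPKM in the CvP and a listed 0 in the Epi. This made it at least 5.14-fold higher in the CvP, with a lower limit of the counting interval of 3.79 where the listed 0 is taken as no reads. *Grm7*, a presynaptic receptor of low glutamate affinity, lies on chromosome 6 (110595592 to 111517224) and had 0.10 RPKM in the CvP against a listed 0. It was at least 3.90-fold higher, with a lower limit of the counting interval of 2.73, below the limit of 3. Of its exons, 130 bases overlap an antisense transcript, whose reads could have been counted with its 12. *Grm2*, which lowers cyclic AMP as *Grm4* does, lies on chromosome 9 (106546866 to 106558440) and had 0.07 RPKM in the CvP against a listed 0. Its 7 reads gave a bound of at least 2.17-fold higher, with a lower limit of the counting interval of 1.42.

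*Gprc6a*, a receptor of basic amino acids and calcium, was listed at 0 in both libraries. It lies on chromosome 10 (51334629 to 51351264), and no fold was calculated for it.

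The 2 subunits of the GABA-B receptor were unequal. GABBR1 binds GABA, and it needs GABBR2 to reach the cell surface and to signal. *Gabbr1* (chromosome 17, 37182911 to 37211250) had a CvP/Epi ratio of 2.74 (95% interval 2.34 to 3.22), which 81.6% of the 1384 rows with 400 to 600 CvP reads did not reach. *Gabbr2* (chromosome 4, 46676770 to 47004586) had a ratio of 25.0 (4.55 to 1126) on a single Epi read. Within the CvP, the level of *Gabbr1* was 15.8 times that of *Gabbr2* (95% interval 10.9 to 24.3), per length of gene. In the Epi the ratio of the 2 levels was 144, with an interval from 28.5 to 6379. These intervals cover counting error only. The listed length of *Gabbr1* was 8.039 kb, against 7.793 kb of annotated exons, and that of *Gabbr2* 3.998 kb, against 5.849 kb. The effect of these lengths on the ratio of the 2 levels was not tested. *Gabbr1* was thus higher in the CvP. *Gabbr2* was too, but it passed the read limit through the CvP alone and had to be the higher one there. In each library *Gabbr2* had the lower RPKM of the 2 subunits.

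The nearest row to *Gabbr1* by level was *Pot1b*, at 3.93 RPKM in the CvP and 1.42 RPKM in the Epi, followed by *Slc39a13*, at 3.88 and 1.45 RPKM. With 2 libraries this says only that the 2 values lie close. For *Grm2* 47 rows had identical values.

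Beside the 8 members, 14 other class C receptors were listed, of which 11 had a row. More than 3 reads were found for 8 of these, and 7 of the 8 had a ratio above 3. *Tas1r3* was the highest class C receptor of the CvP, at 25.3 RPKM against 0.70 RPKM in the Epi, and its sweet partner *Tas1r2* had 20.3 and 0.01 RPKM. The umami partner *Tas1r1* had 3.69 RPKM in the CvP and 0.16 RPKM in the Epi. *Tas1r1* and *Grm4* did not differ in the CvP beyond counting error, the ratio of their levels being 1.14 (95% interval 0.974 to 1.32). They differed in the Epi, where the level of *Tas1r1* was 0.0884 times that of *Grm4* (0.0433 to 0.151). *Casr* was lower than the taste receptors in the CvP, where the level of *Tas1r1* was 3.38 times (2.77 to 4.18) and that of *Tas1r3* 23.2 times (19.6 to 27.8) that of *Casr*. These ratios between genes also depend on the listed lengths, which exceed the annotated exons for *Grm4* and *Casr*. The effect of this was not tested.

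The orphan receptors *Gprc5a*, *Gprc5b* and *Gprc5c*, which have only a short extracellular part, exceeded most of the 8 members. Their CvP levels were 4.07, 7.05 and 2.73 RPKM, and their Epi levels 0.16, 0.56 and 0.10 RPKM. *Gpr179*, known from retinal bipolar cells, went the other way, with 0.07 RPKM in the CvP and 0.16 RPKM in the Epi and a ratio of 0.438 (0.234 to 0.769). *Grm8* and *Gpr158* had 2 reads each in the CvP, and no fold was calculated for them. *Grm3*, *Grm6* and *Gprc5d* were not analysed here.

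**Figure D3:**
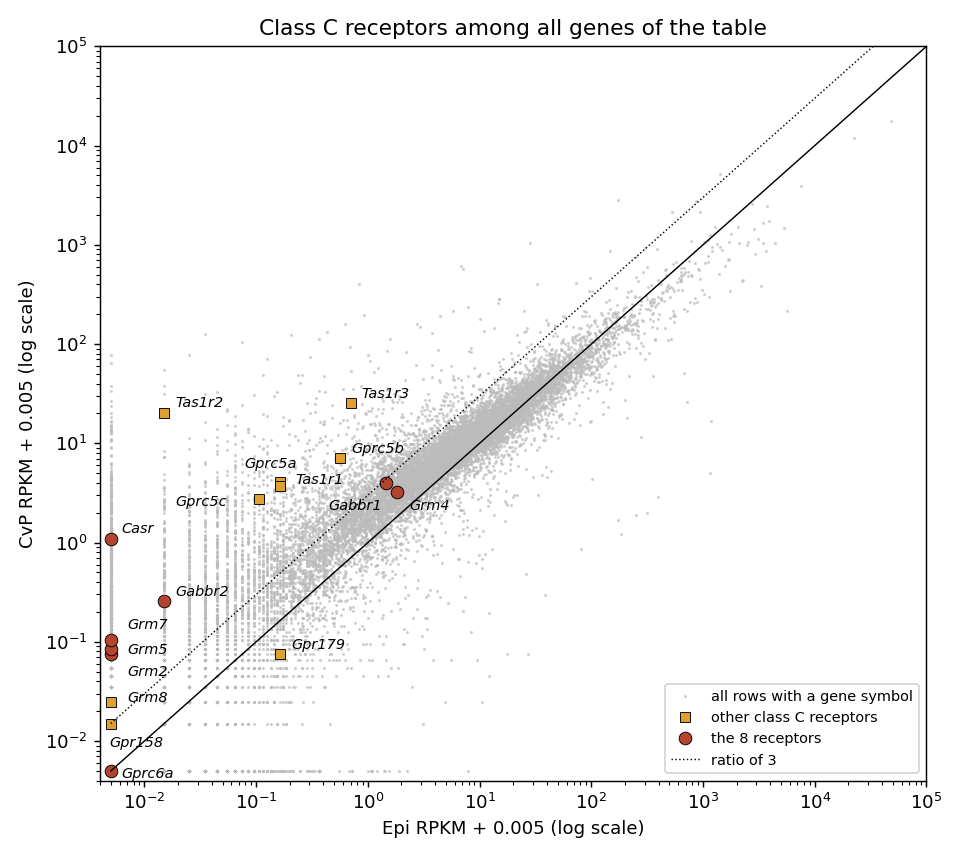
CvP against Epi RPKM (both plus 0.005, log scales) for all rows with a gene symbol (grey), the 8 receptors (red circles) and 9 other class C receptors (orange squares); the solid line marks equal values and the dotted line a ratio of 3. *Gabbr1* and *Grm4* lie within the cloud of genes, *Casr* lies on the left edge at an Epi RPKM of 0, and *Tas1r2* and *Tas1r3* lie far above the line.

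The genes that work with these receptors differed from list to list. In the counts that follow, a gene with no Epi reads was set at 3, by which 21.8% of the 16297 rows had a ratio above 3. Genes with few Epi reads again entered through the CvP alone. Of the 14 scaffolds and binding partners of metabotropic glutamate receptors with more than 3 reads, 3 had a ratio above 3, and the median log2 ratio was 0.62. *Pick1*, which binds the tail of mGluR7, had 12.6 RPKM in the CvP and 7.38 RPKM in the Epi, and *Ncdn*, which binds mGluR5, had 7.54 and 4.63 RPKM. *Siah1a*, a ubiquitin ligase, did not differ between the libraries beyond counting error, with a ratio of 0.985 (0.877 to 1.11).

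Of the 8 detected partners of the GABA-B receptor, 5 had a ratio above 3. *Kctd12*, an auxiliary subunit that speeds the desensitization of the receptor, had 16.7 RPKM in the CvP and 0.40 RPKM in the Epi, a ratio of 41.6 (32.6 to 53.6). *App*, whose product binds GABBR1, had 146 and 80.2 RPKM, and *Gabarap*, better known as a partner of GABA-A receptors, 124 and 137 RPKM. *Kcnj5*, a subunit of the potassium channels that GABA-B receptors open in neurons, was named after its values were seen. It had 15.0 RPKM in the CvP and was listed at 0 in the Epi. Set against 3 Epi reads it was 628-fold higher, and the lower limit of the counting interval was 510.8.

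Of the 7 detected genes of GABA synthesis and transport, 4 had a ratio above 3. *Gad2*, an enzyme that makes GABA, had 7.23 RPKM in the CvP and 0.01 RPKM in the Epi, the latter 2 reads, so that its ratio had an interval from 160 to 4798. The GABA transporter *Slc6a11* had 5.29 RPKM in the CvP and a listed 0 in the Epi. Set against 3 Epi reads it was 200.5-fold higher, and the lower limit of the counting interval was 162.5. *Aldh5a1*, which breaks GABA down further, was higher in the Epi, at 11.4 RPKM against 9.13 RPKM (ratio 0.802, 0.748 to 0.859).

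Of the 12 detected genes that move and convert glutamate, 6 had a ratio above 3 and 1 below 1/3, and 10 had an interval above 1, beside 64.7% of rows. *Glul*, which turns glutamate into glutamine, had 416 RPKM in the CvP and 72.2 RPKM in the Epi (ratio 5.76, 5.60 to 5.92). The amino acid transporters *Slc1a4* and *Slc1a5* had ratios of 2.86 (2.70 to 3.03) and 6.16 (5.58 to 6.81). In the list of calcium homeostasis, 6 of 15 had a ratio above 3. *S100g*, a calcium-binding protein, had 15.0 and 0.90 RPKM, *Flna*, a binding partner of CaSR, 41.0 and 24.1 RPKM, and the calcium pump *Atp2b1* 14.4 and 7.58 RPKM.

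Of the 17 G proteins and effectors, 10 had a ratio above 3 and the median log2 ratio was 1.79. The taste G protein subunits *Gnat3* and *Gng13* had 127 and 77.4 RPKM in the CvP, against 0.03 RPKM and a listed 0 in the Epi. *Gnai3*, a widely used inhibitory subunit, was higher in the Epi, at 111 RPKM against 72.6 RPKM.

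**Figure D4:**
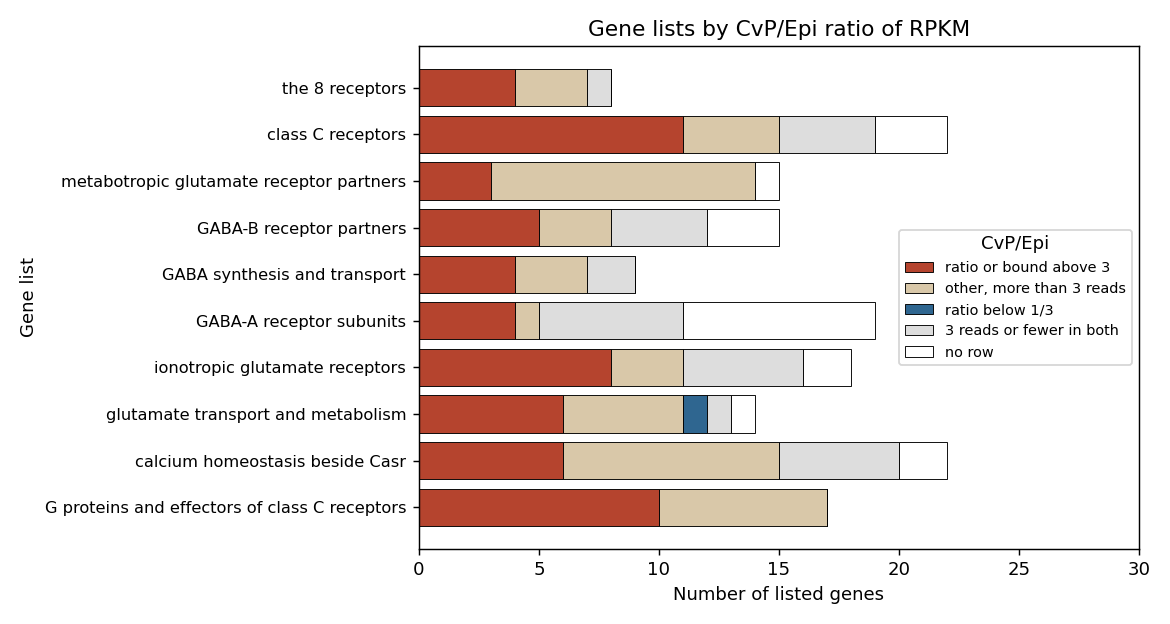
Number of listed genes (bar segments) in each list by CvP/Epi ratio of RPKM; colours mark a ratio (or bound against 3 Epi reads) above 3, below 1/3 and neither, and grey and white mark genes with at most 3 reads in both libraries and genes with no row. It was above 3 for 4 of the 8 receptors, 3 of 14 detected glutamate receptor partners and 10 of 17 G proteins and effectors.

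Marker genes of other cells also differed between the 2 samples. Of those detected, 9 of 10 of type II taste cells, 10 of 10 of type III taste cells, 8 of 8 of neuroendocrine cells, 10 of 14 of glia and nerve and 7 of 9 of immune cells had a ratio above 3. In type I taste cells this held for 4 of 7, while 2 had a ratio below 1/3. The type III list summed to 137 RPKM in the CvP and 1.09 RPKM in the Epi. The glia and nerve list summed to 258 and 56.8 RPKM, to which *Mal* gave 216 and 5.74 and *Tubb3* 4.58 and 40.4. Without *Mal* it was lower in the CvP, at 41.6 against 51.1 RPKM. The list had 4 genes listed at 0 in the Epi but none in the CvP. The lists of keratinized epithelium, skeletal muscle and salivary gland went the other way, with 5 of 9, 9 of 10 and 4 of 7 detected genes at a ratio below 1/3, and 4 of 7 fibroblast genes did so too. In the salivary list *Aqp5* and *Pigr*, with ratios of 8.83 and 22.2, stood on the CvP side, and so did *Fbln1* and *Pdgfra* of the fibroblast list, at 6.64 and 18.6. *Aqp5*, *Pigr* and *Pdgfra* were named after their values were seen. The keratin genes *Krt13* and *Krt4* led both libraries as the label of tongue epithelium has it, with Epi levels of 47815 and 22406 RPKM. The part of any of these cells in the levels of the 8 receptors was not tested.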

How the data were processed

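The authors mapped single-end reads with Bowtie 0.12.7 to NCBI37/mm9, per the labels and the paper, and deposited RPKM values that ERANGE gave on exon models, with 1 library of pooled RNA per tissue. ERANGE options and the treatment of reads with several matches were not given in the sources used here. The authors' CvP/Epi column was not used. The members, the gene lists and the rule for named genes (the members, all class C receptors, the 2 or 3 highest genes of each list and the rows nearest to *Gabbr1* and *Grm2*) were chosen with earlier results of these data known.

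Depth was read from the RPKM step in rows of 0.1 kb, 0.352 (CvP) and 0.358 (Epi). In rows of up to 0.5 kb with under 20 reads, 98.2% and 98.4% of values were whole reads to within 0.15. For reads per gene, the RPKM was multiplied by depth and length, taking the listed length or that of the longest protein-coding GENCODE M1 transcript, whichever was shorter. GENCODE M1 held all 8 symbols and 16883 of 18043 in all. For rows with a longer listed length this underestimates reads and widens intervals. Floors and intervals hold only counting error. A few genes of the lists are counted but not reported here by name. The counting and the kit were not stated to use strand. The depth estimate and the interval of the CvP/Epi ratio were tested on simulated data, and the other statistics were not. Python 3.11.15, numpy 2.4.6, pandas 2.3.3, scipy 1.17.1 and matplotlib 3.10.9 were used.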

Additional observations from a re-analysis of the deposited data

How the results depend on the processing

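No paired analysis was possible because there was only 1 library of each tissue and no test was run. The number of members with a ratio above 3, which was 5, stayed between 4 and 6 with ratio limits of 2 and 5, ratios divided by the median ratio, rescaling to a common sum, no floor, a floor of 10 reads and a listed 0 set to 3 Epi reads. It was 2 with a pseudocount of 0.1 RPKM and 0 with one of 1 RPKM, since an added value lowers a ratio by construction, and most where the Epi value is near 0. The number with an interval above 1 was 7 with the listed length and against the median ratio, and 6 with a 99% interval. With more than 3 reads asked for in both libraries, the numbers were 0 and 2, since only *Gabbr1* and *Grm4* were then left. This alternative and the setting of a listed 0 to 3 reads were chosen after seeing the data. Members with a CvP RPKM above 10 and a ratio above 3 were 0, and 1 with a CvP minimum of 1 RPKM (*Casr*) or with RPKM rescaled to a sum of 1000000 (*Gabbr1*). The median log2 ratio of 1.00 was 0.31 with a pseudocount of 1, 0.92 with no floor and 0.61 after division by the median ratio, but 3.17 with a pseudocount of 0.01 and 1.74 with RPKM rescaled to a sum of 1000000. No direction reversed.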

Other observations

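The ionotropic receptors for the same transmitters, which are ion channels and not class C receptors, were also listed. Of the 11 ionotropic glutamate receptor genes with more than 3 reads, 8 had a CvP/Epi ratio above 3, with a gene of no Epi reads set at 3 reads there. *Grin1*, the subunit common to NMDA receptors, had CvP and Epi levels of 3.94 and 0.03 RPKM, and its ratio was 131 (95% interval 45.7 to 434). *Grik5*, a kainate receptor subunit, had 1.70 and 0.21 RPKM, and *Gria3*, an AMPA receptor subunit, 0.53 and 0.01 RPKM.

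Of the 19 listed GABA-A receptor subunits, 11 had a row and 5 had more than 3 reads. On the same terms 4 of the 5 had a ratio above 3, and *Gabrd*, with 4 CvP reads against 0, had an interval that began at 0.649. *Gabrd* was named after its values were seen. *Gabrp*, an epithelial subunit, was the highest, with 21.4 RPKM in the CvP and 0.99 RPKM in the Epi (ratio 21.6, 17.4 to 26.8). *Gabre* had 0.13 and 0.01 RPKM, on 13 and 1 reads.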
